A study of Homo sapiens with 16 samples.

Results

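The 10 genes described here are 7 receptor tyrosine kinase genes (FGFR1, FLT3, KIT, INSR, IGF1R, ERBB3 and AXL), the insulin receptor substrate genes IRS1 and IRS2, and FGFR1OP2, whose 5′ part is joined to the kinase part of FGFR1 in the fusion gene known in KG-1 cells. They were chosen by symbol with earlier results of these data known, and all 10 were found among the 43836 genes of the count table. KG-1 is an established human acute myeloid leukemia (AML) cell line of myeloblast-like cells. RNA-seq libraries were compared for 8 conditions with 2 libraries each, 16 in all. Every culture had been transduced with a pLKO.1-puro lentivirus and selected with 4 μg/mL puromycin: control cells carried a non-target shRNA and FOXM1-KD cells an shRNA against FOXM1, a transcription factor of proliferating cells. Both are stable selected cultures, and no source describes more than 1 of each, so the libraries do not sample the spread between transductions. Control cells received vehicle (0.3% DMSO, 48 h), the AKT inhibitor MK-2206 (30 μM, 24 h), the FOXM1 inhibitor STL427944 (50 μM, 48 h), the nucleoside drug AraC (cytarabine, 0.75 μM, 48 h) or the BCL2 inhibitor venetoclax (100 nM, 48 h). FOXM1-KD cells received DMSO, AraC or venetoclax at the same doses and times. MK-2206 was given for 24 h and its DMSO control for 48 h, so drug and time cannot be told apart in that comparison.

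Receptor tyrosine kinases bind growth factors at the cell surface, phosphorylate themselves and then recruit adaptor proteins that pass the signal to the PI3K-AKT and RAS-MAPK pathways. KIT and FLT3 are the receptors for stem cell factor and FLT3 ligand on hematopoietic progenitors. INSR and IGF1R, the receptors for insulin and IGF-1, act mainly through the docking proteins IRS1 and IRS2, which bind PI3K, and active AKT is known to restrain this arm of the pathway through FOXO transcription factors.

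Upstream sequences are shown for the 3 genes of the insulin and IGF-1 arm whose RNA differed most between conditions, IGF1R, IRS1 and IRS2, and for FGFR1OP2, since the fusion gene is transcribed from its 5′ end. They are the 250 bases before the RefSeq transcript start on GRCh38.p14, printed 5′ to 3′ on the strand of the gene, with capitals marking each TGTTT or its reverse complement AAACA, the core letters of a forkhead motif.
IGF1R (chr15:98648289-98648538, plus strand): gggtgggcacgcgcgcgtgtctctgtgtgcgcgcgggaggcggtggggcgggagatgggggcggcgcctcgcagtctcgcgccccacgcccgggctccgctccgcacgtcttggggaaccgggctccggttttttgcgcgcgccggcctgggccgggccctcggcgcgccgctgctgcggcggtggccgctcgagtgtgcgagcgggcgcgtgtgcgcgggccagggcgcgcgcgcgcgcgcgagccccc
IRS1 (chr2:226799821-226800070, minus strand): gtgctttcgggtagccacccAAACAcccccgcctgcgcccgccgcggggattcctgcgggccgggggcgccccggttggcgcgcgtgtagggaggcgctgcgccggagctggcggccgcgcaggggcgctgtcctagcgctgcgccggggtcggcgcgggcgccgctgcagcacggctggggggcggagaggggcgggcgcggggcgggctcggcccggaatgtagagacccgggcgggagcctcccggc
IRS2 (chr13:109786584-109786833, minus strand): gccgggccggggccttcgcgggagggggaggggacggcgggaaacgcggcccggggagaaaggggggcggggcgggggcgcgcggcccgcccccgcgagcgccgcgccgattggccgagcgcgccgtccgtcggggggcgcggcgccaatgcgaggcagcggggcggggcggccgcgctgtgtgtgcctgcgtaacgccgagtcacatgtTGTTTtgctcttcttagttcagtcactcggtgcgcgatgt
FGFR1OP2 (chr12:26938220-26938469, plus strand): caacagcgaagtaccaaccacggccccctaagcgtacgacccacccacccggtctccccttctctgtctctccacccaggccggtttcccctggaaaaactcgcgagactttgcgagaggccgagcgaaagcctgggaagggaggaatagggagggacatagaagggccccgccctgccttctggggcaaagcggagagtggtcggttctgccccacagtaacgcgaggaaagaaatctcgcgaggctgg
IRS1 and IRS2 each held 1 match to the 5-letter core, and IGF1R and FGFR1OP2 held none. The core was found on either strand in 40.4% of 35116 RefSeq promoters of this length, and the 7-letter TGTTTAC in 2.98% of them and in none of the 4 shown. The G and C content was 81.2% for IGF1R, 80.8% for IRS1, 76.4% for IRS2 and 62.0% for FGFR1OP2, against a median of 58.0% over all promoters. A match describes the letters and is not a measured binding site. Upstream sequences were taken for 8 of the 10 genes, and none was taken for FGFR1 or ERBB3.

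Total counts on genes ran from 7351755 to 21362546 per library with a median of 18106217.5, and the MK-2206 libraries were the lowest 2 (7351755 and 10330720). They still had the most genes with a count, 21430 and 24957, against 18674 to 20568 in the other libraries. Levels are given as CPM, the count relative to the library total after scaling by the trimmed mean of M values (TMM), and the spread as SD over the 2 libraries (n = 2). A gene was called changed at a 2-fold or larger difference and an adjusted p below 0.1 in edgeR's quasi-likelihood test, fitted over all genes with at least 1 count in the libraries compared. The 2 libraries of a condition differed beyond counting noise (chi-square over degrees of freedom from 8.58 to 103). FOXM1 itself, the check of the knockdown, had 2554 and 2515 counts in control DMSO and 923 and 1551 in FOXM1-KD DMSO libraries (log2 fold change −1.08, SE 0.29, adjusted p = 0.0671). Under AraC the difference in FOXM1 was smaller and was not called (−0.56, SE 0.16, adjusted p = 0.034), and under venetoclax it was called (−1.20, SE 0.32, adjusted p = 0.0305). The call on FOXM1 with DMSO was lost without control replicate 1, control replicate 2 or FOXM1-KD replicate 1, and the call under venetoclax without either FOXM1-KD replicate.

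Several libraries stood apart. Control STL427944 replicate 2 and control venetoclax replicate 1 were closer to each other (root mean square log2 difference of 0.308) than to the other replicate of their own condition (0.63 and 0.646), whereas their partners lay within 0.196 to 0.316 of the DMSO libraries. Sign-changing results of single genes that rest on these libraries are given with 1 of them left out. Called results are so given only in part, and the list and neighbor counts under venetoclax are not. The MK-2206 libraries were closer to FOXM1-KD libraries (1.48 to 1.75) than to the other control libraries (1.96 to 2.23), while FOXM1-KD and those control libraries lay 1.57 to 1.74 apart. CD34, a defining surface antigen of KG-1, had 12483 to 28951 counts in the 8 control libraries without MK-2206, 7 and 18 counts with MK-2206 and 0 to 4 counts across the 6 FOXM1-KD libraries, so a marker of the labelled line was nearly or wholly absent from the latter 8 libraries. The summed level of 12 leukocyte and myeloid markers was 3203 and 3266 CPM in control DMSO, 713 and 809 CPM with MK-2206 and 6518 and 7019 CPM for FOXM1-KD DMSO, with 12, 12 and 11 of the 12 genes above 3 counts. MPO, the granule enzyme myeloperoxidase, made up much of the last sum, with 35 and 48 counts in control DMSO, 3888 and 3424 counts with MK-2206 and 94451 and 90669 counts in FOXM1-KD DMSO. CD38, another antigen of the list, had 240 and 190 CPM in control DMSO, 0.571 and 0.116 CPM with MK-2206 and 1.43 and 1.27 CPM in FOXM1-KD DMSO. Of the 12 genes, 2 were called higher and 7 lower after MK-2206, and 4 higher and 5 lower in FOXM1-KD DMSO cells (medians of −2.39 and −0.47). The summed level of 13 markers of other cell types was 159 and 167 CPM, 7.71 and 9.02 CPM, and 5.96 and 9.10 CPM in the same conditions. Of the 13 genes, 3, 6 and 2 were above 3 counts. EPCAM, ALB, HBB and MS4A1 were at or below 3 counts in all of these conditions. KRT18, KRT19 and COL1A1 were above it with MK-2206 alone. After MK-2206, 3 of 11 tested were called higher and 2 lower (median 3.88). In FOXM1-KD DMSO cells 0 of 6 were higher and 2 lower (median −2.24). These shifts accompany every FOXM1-KD and MK-2206 result below, and their part in those results was not tested. In bulk RNA, fewer cells with a transcript and less of it per cell cannot be told apart.

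Per kilobase of exon, the scale on which genes can be set beside each other, IRS2 was the most abundant of the 10 genes in control DMSO cells (19.9 CPM per kb), followed by FGFR1OP2 (13.2), FGFR1 (6.91), INSR (5.98), FLT3 (1.86), KIT (1.60), IGF1R (0.297) and IRS1 (0.0466), with ERBB3 and AXL at 0 counts. In FOXM1-KD DMSO cells the order was INSR (19.4), FLT3 (14.5), IGF1R (11.7), FGFR1OP2 (9.02), IRS2 (8.63), IRS1 (1.13) and FGFR1 (0.0706 CPM per kb). After MK-2206, IRS2 led at 77.4 CPM per kb, FGFR1 stood at 1.55, and IGF1R and IRS1 at 4.88 and 4.84.

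**Figure D1:**
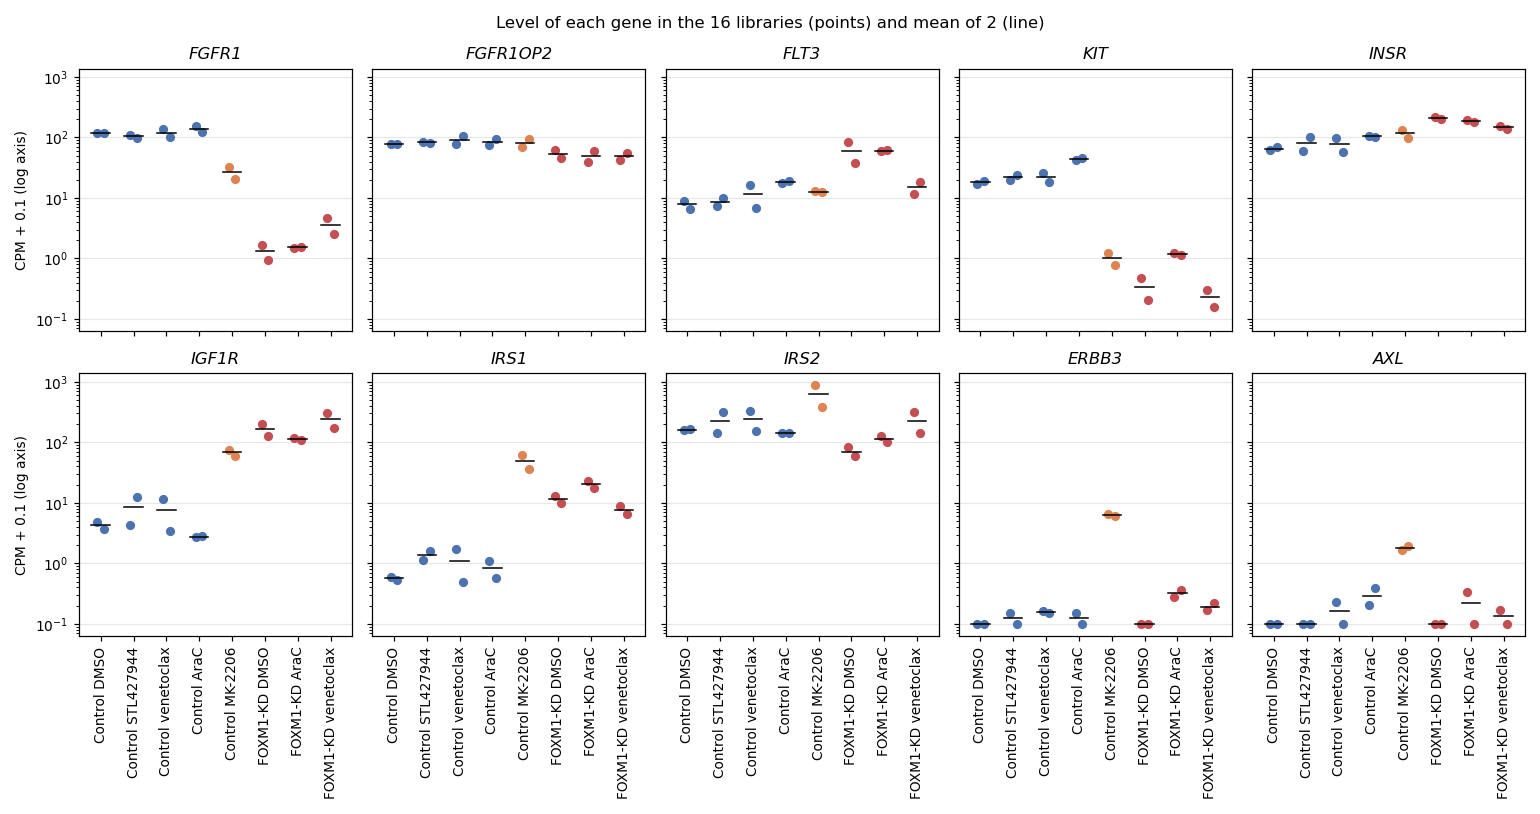
Level of each of the 10 genes in the 16 libraries, as CPM + 0.1 on a log axis, by condition (points are libraries, lines the mean of 2; blue control cells, orange MK-2206, red FOXM1-KD). FGFR1 and KIT lie lower and IGF1R and IRS1 higher in every FOXM1-KD and MK-2206 library than in any other library, and ERBB3 and AXL pass 1 CPM after MK-2206 alone.

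The number of genes called in each comparison has to be read against the share of all genes called there. After MK-2206, 7 of the 10 genes were called, where 45.3% of 28905 genes were: 5 were higher (28% of all genes) and 2 lower (17.3%). With low-count genes filtered out, 62.8% of 15634 genes were called after MK-2206. In FOXM1-KD cells given DMSO, 7 of the 8 genes tested were called, where 28.8% of 23274 genes were: 4 were higher (12.9%) and 3 lower (15.9%). FOXM1-KD against control gave 5 of 10 under AraC (29.6% of 24653 genes), 3 higher (15.4%) and 2 lower (14.2%). Under venetoclax it gave 4 of 10 (22.5% of 24947 genes), 2 higher (10.2%) and 2 lower (12.3%). With low-count genes filtered out, FOXM1-KD against control called 36.1% of genes with DMSO, 40.1% under AraC and 36.7% under venetoclax. AraC against DMSO called 2 of 10 in control cells, both higher, where 5.67% of 22842 genes were called (3.94% higher, 1.73% lower). It called 0 of 10 in FOXM1-KD cells, where 7.84% of 23381 genes were (6.45% higher, 1.39% lower). There 4 of the 10 had an unadjusted p below 0.05, and DESeq2 called 0 of the 10 and 8.2% of all genes. The AraC response differed between FOXM1-KD and control cells in 0 of 10, where 1.68% of 26059 genes were called (1.39% higher, 0.292% lower), and the venetoclax response in 0 of 10, where 0% of 26393 genes were. At an unadjusted p below 0.05 these had 3 and 2 of the 10. DESeq2 called 1 of the 10 in each, FLT3, and 3.43% and 0.227% of all genes. STL427944 (0 of 9, 0% of 22672 genes), venetoclax in control cells (0 of 10, 0% of 22593 genes) and venetoclax in FOXM1-KD cells (0 of 10, 0% of 23717 genes) called none. At an unadjusted p below 0.05 these 3 comparisons had 268, 267 and 1288 genes, of which 1, 0 and 3 were among the 10, and DESeq2 called 1, 0 and 289 genes. The MK-2206, STL427944, AraC, venetoclax and knockdown comparisons in DMSO share the same 2 control DMSO libraries and are not independent of each other.

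**Figure D2:**
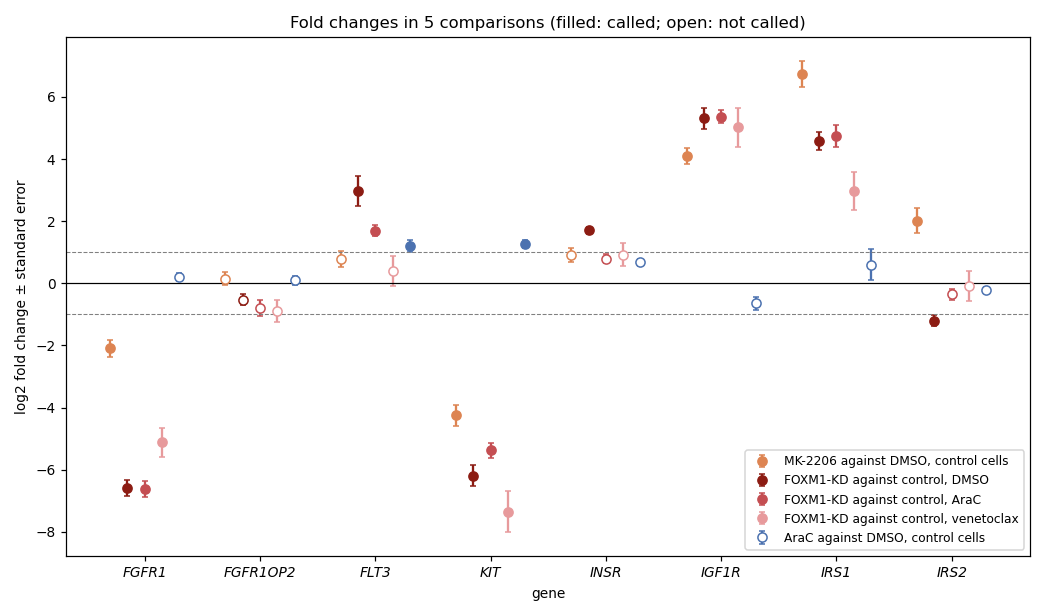
Log2 fold change ± SE of the 8 genes with usable counts in 5 comparisons, filled where called and open where not, with dashed lines at 2-fold. FGFR1 and KIT were called lower in all 4 MK-2206 and knockdown comparisons (−2.10 to −6.63, and a fitted value for KIT under venetoclax, where the FOXM1-KD libraries were at the floor) and IGF1R and IRS1 higher in all 4 (2.98 to 6.73), while FLT3 and KIT were the genes called under AraC in control cells.

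KIT, the receptor for stem cell factor, was lower by far in FOXM1-KD and MK-2206 cells and higher after AraC. In control cells it had 313 and 346 counts with DMSO (17.2 and 19.0 CPM), 367 and 350 with STL427944 (19.7 and 24.2 CPM), 401 and 380 with venetoclax (25.8 and 18.5 CPM) and 821 and 956 with AraC (42.4 and 45.4 CPM). MK-2206 libraries held 8 and 6 counts (1.14 and 0.693 CPM), and FOXM1-KD libraries 7 and 2 with DMSO, 19 and 20 with AraC and 3 and 1 with venetoclax. Every FOXM1-KD and MK-2206 library lay below every other library. KIT fell by 4.25 on the log2 scale after MK-2206 (SE 0.33, adjusted p = 0.00104 in edgeR's quasi-likelihood test), and FOXM1-KD against control gave −6.20 with DMSO (SE 0.34, adjusted p = 0.00303) and −5.37 under AraC (SE 0.24, adjusted p = 1.32e-05). Under venetoclax both FOXM1-KD libraries were at or under the floor of 3 counts per library, and KIT was at least 115-fold lower than in control cells (adjusted p = 4.88e-05). The fitted log2 fold change of KIT there ran from −8.37 to −6.70 with 1 library left out. Its DMSO value was −7.35 without FOXM1-KD replicate 1 and −5.59 without replicate 2, and was called in both.

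AraC raised KIT in control cells by 1.26 on the log2 scale (SE 0.12, adjusted p = 0.0136), with both AraC libraries above both DMSO libraries. This call was lost without either AraC library (adjusted p = 0.136 and 0.166), where no gene of the table was called, while the difference itself stayed at 1.31 and 1.24. In FOXM1-KD cells KIT had 0.370 and 0.105 CPM with DMSO and 1.12 and 1.05 CPM with AraC, which did not pass the test (2.09, SE 0.60, adjusted p = 0.112) and did in the fit of all 16 libraries (2.08, adjusted p = 0.0415). The difference between the AraC responses of FOXM1-KD and control cells was 0.91 (SE 0.60, adjusted p = 0.683).

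FLT3, the receptor for FLT3 ligand, was higher in FOXM1-KD cells given DMSO or AraC and did not differ detectably under venetoclax. In control cells it had 8.93 and 6.54 CPM with DMSO, 7.17 and 9.84 with STL427944, 16.4 and 6.68 with venetoclax, 17.3 and 18.8 with AraC and 12.7 and 12.5 after MK-2206. In FOXM1-KD cells it had 83.1 and 37.8 CPM with DMSO (1572 and 717 counts), 58.6 and 61.3 with AraC and 11.5 and 18.5 with venetoclax (169 and 310 counts). The DMSO and AraC libraries of FOXM1-KD cells lay above all control libraries, whereas those with venetoclax overlapped the control range of 6.54 to 18.8 CPM.

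The log2 fold change of FLT3 between FOXM1-KD and control cells was 2.97 with DMSO (SE 0.50, adjusted p = 0.0244), 1.69 under AraC (SE 0.17, adjusted p = 0.000384) and 0.39 under venetoclax (SE 0.49, adjusted p = 0.584). The DMSO call was lost without either control DMSO library (adjusted p = 0.141 and 0.159), and the value was 2.27 without FOXM1-KD replicate 1. Under venetoclax the value was 1.16 without control replicate 1 and −0.13 without control replicate 2, and neither was called. AraC raised FLT3 in control cells by 1.21 (SE 0.19, adjusted p = 0.0287), a call that needed both AraC libraries and control DMSO replicate 2 and was not made when all 16 libraries were fitted together (1.25, adjusted p = 0.171). MK-2206 against DMSO gave 0.77 (SE 0.25, adjusted p = 0.0643), which is under 2-fold.

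Within FOXM1-KD cells, venetoclax against DMSO gave a log2 fold change of −1.98 for FLT3 (SE 0.45), with both venetoclax libraries below both DMSO libraries. It did not pass over all genes in edgeR's quasi-likelihood test (adjusted p = 0.483), which called no gene in this comparison. It was called by DESeq2 (adjusted p = 0.000146), in the fit of all 16 libraries (adjusted p = 0.02) and with low-count genes filtered out (adjusted p = 4.81e-05). The venetoclax response of FLT3 differed between FOXM1-KD and control cells by −2.56 (SE 0.70, adjusted p = 1.00) and the AraC response by −1.21 (SE 0.48, adjusted p = 0.362).

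FGFR1, a fibroblast growth factor receptor, was reduced to a small remainder in FOXM1-KD cells and to a smaller extent by MK-2206. Its 8 control libraries without MK-2206 had 1423 to 2935 counts, from 98.6 to 152 CPM with a median of 119 CPM. After MK-2206 there were 228 and 179 counts (32.6 and 20.7 CPM). FOXM1-KD libraries held 30 and 16 counts with DMSO (1.59 and 0.844 CPM), 24 and 27 with AraC (1.42 and 1.42 CPM) and 66 and 41 with venetoclax (4.51 and 2.45 CPM). The 3 sets of libraries did not overlap. FGFR1 fell by 2.10 on the log2 scale after MK-2206 (SE 0.26, adjusted p = 0.00364), and FOXM1-KD against control gave a log2 fold change of −6.59 with DMSO (SE 0.25, adjusted p = 0.00186), −6.63 under AraC (SE 0.25, adjusted p = 8.37e-06) and −5.12 under venetoclax (SE 0.47, adjusted p = 7.64e-05). Without control venetoclax replicate 1 the last value was −4.89. Counts on FGFR1 pool transcripts of the intact gene with those of the fusion, since the table gives 1 value per gene.

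FGFR1OP2, the 5′ partner of the fusion, did not follow FGFR1. It had 77.9 and 76.9 CPM in control DMSO cells, 70.7 and 92.7 with MK-2206, and 61.2 and 44.9 for FOXM1-KD with DMSO. Over all 8 control libraries without MK-2206 it ran from 73.7 to 104 CPM and over the 6 FOXM1-KD libraries from 39.0 to 61.2 CPM, so these sets did not overlap. None of the differences reached 2-fold. The log2 fold change was 0.15 after MK-2206 (SE 0.22, adjusted p = 0.575), −0.54 in FOXM1-KD cells with DMSO (SE 0.18, adjusted p = 0.0996), −0.80 under AraC (SE 0.25, adjusted p = 0.0468) and −0.89 under venetoclax (SE 0.35, adjusted p = 0.122). The MK-2206 value turned to −0.08 with library totals in place of TMM: over 12577 protein-coding genes the median was −0.29 under TMM, −0.51 under library totals and −0.18 under the size factors of DESeq2. The value passed 2-fold under AraC without FOXM1-KD replicate 2 (−1.15) and under venetoclax without control replicate 1 (−1.10).

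The genes beside FGFR1 on chromosome 8 moved with it. Of the 13 protein-coding genes within 500 kb, 10 were called lower and 0 higher after MK-2206, where 17.3% of all genes were called lower, with a median log2 fold change of −2.35 against 1.05 over all genes tested. Over protein-coding genes with a mean of at least 10 CPM, the median after MK-2206 was −0.49 and 36.5% were called lower. In FOXM1-KD cells 10 of the neighbors were lower and 1 higher with DMSO, 11 and 1 under AraC, and 10 and 1 under venetoclax, with medians of −1.65, −1.49 and −1.56 against −0.03, 0.08 and 0.12 over all genes, of which 15.9%, 14.2% and 12.3% were called lower. The gene that was higher was STAR, a cholesterol transporter of mitochondria. After MK-2206 the value of FGFR1 (−2.10) lay close to the median of its neighbors, and in FOXM1-KD DMSO cells (−6.59) it lay below NSD3 (−1.70), BAG4 (−1.16), DDHD2 (−3.31) and all other neighbors except ADRB3 and GOT1L1, which had 0 counts in the FOXM1-KD DMSO libraries. AraC in control cells called 0 of the 13, with a median of 0.13. Without either control DMSO library 7 rather than 10 neighbors were called lower in FOXM1-KD DMSO cells.

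The lower values continued from FGFR1 across the rest of the short arm and along the long arm. This look along the chromosome was taken after the values of the neighbors were seen and covers protein-coding genes with a mean of at least 10 CPM. In FOXM1-KD DMSO cells 16 of 19 such genes from 0.5 to 5 Mb past FGFR1, 15 of 19 from 5 to 20 Mb and 141 of 210 beyond 20 Mb were called lower, with medians of −1.40, −1.46 and −1.28, where 14.7% of 9585 such genes were called lower across all chromosomes. On the other side, toward the end of the short arm, 7 of 81 genes beyond 2 Mb were called lower, with a median of −0.02. After MK-2206 the same bins gave 16 of 19, 16 of 19 and 146 of 210, with medians of −2.21, −2.75 and −1.81, against 29 of 81 with a median of −0.45 on the short-arm side and 36.5% over all chromosomes. FGFR1OP2 on chromosome 12 had no such surroundings: of the 7 neighbors tested, 1 was lower and 2 were higher in FOXM1-KD DMSO cells, and 2 were lower and 2 higher after MK-2206.

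**Figure D3:**
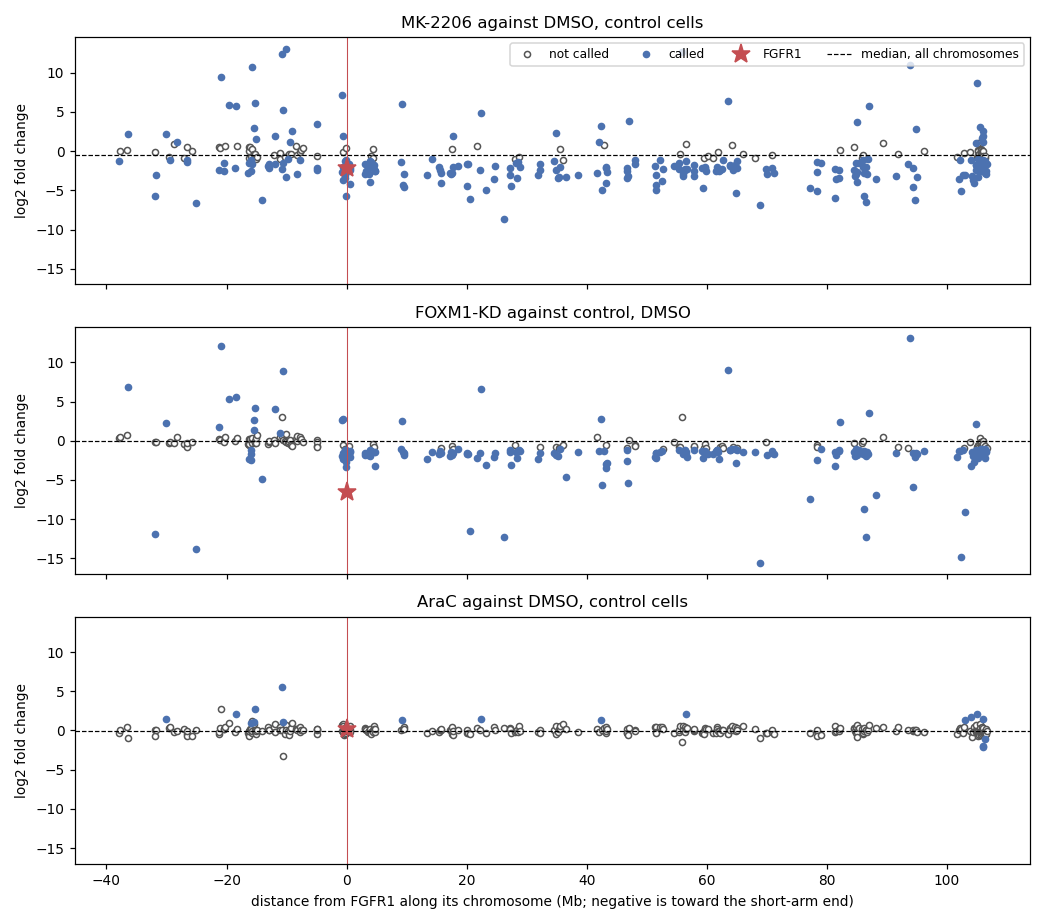
Log2 fold change of protein-coding genes with a mean of at least 10 CPM against their distance from FGFR1 along chromosome 8 in Mb, in 3 comparisons (star FGFR1, filled points called, dashed line median of all chromosomes). In FOXM1-KD cells and after MK-2206 most genes from FGFR1 toward the long-arm end lie below the line (medians −1.28 to −2.75), and with AraC they lie on it (−0.05 to 0.10).

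INSR, the insulin receptor, was higher in FOXM1-KD cells with DMSO. It had 60.9 and 68.6 CPM in control DMSO libraries and 221 and 199 CPM in FOXM1-KD DMSO libraries (1112 and 1248 against 4187 and 3773 counts). The FOXM1-KD libraries had 194 and 179 CPM with AraC and 157 and 139 with venetoclax, and all 6 lay above all control libraries, of which MK-2206 replicate 1 was the highest at 135 CPM. The log2 fold change was 1.71 with DMSO (SE 0.11, adjusted p = 0.00415), and 0.80 under AraC (SE 0.15, adjusted p = 0.00642) and 0.93 under venetoclax (SE 0.36, adjusted p = 0.123) were under 2-fold. Without control venetoclax replicate 1, INSR was called under venetoclax as well (1.36, adjusted p = 0.0369).

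In control cells INSR differed by less than 2-fold after AraC (107 and 102 CPM, 0.67, SE 0.11, adjusted p = 0.0329) and after MK-2206 (135 and 98.1 CPM, 0.91, SE 0.22, adjusted p = 0.0292). The MK-2206 value passed 2-fold with DESeq2's size factors (1.02), with DESeq2 (1.02), with low-count genes filtered out (1.07) and without MK-2206 replicate 2 (1.09). AraC against DMSO in FOXM1-KD cells gave −0.25 (SE 0.20, adjusted p = 0.507). The AraC response of INSR differed between FOXM1-KD and control cells by −0.84 (SE 0.20, adjusted p = 0.119).

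IGF1R, the IGF-1 receptor, was higher after MK-2206 and in FOXM1-KD cells under each treatment. It had 85 and 66 counts in control DMSO libraries (4.66 and 3.63 CPM), 51 and 57 with AraC (2.64 and 2.71 CPM), and 529 and 523 with MK-2206 (75.6 and 60.4 CPM). FOXM1-KD libraries held 3792 and 2392 counts with DMSO (201 and 126 CPM), 119 and 108 CPM with AraC and 302 and 175 CPM with venetoclax. The highest control library without MK-2206 had 12.6 CPM, below all MK-2206 and FOXM1-KD libraries. The log2 fold change was 4.10 after MK-2206 (SE 0.26, adjusted p = 0.000674), and FOXM1-KD against control gave 5.31 with DMSO (SE 0.34, adjusted p = 0.00399), 5.36 under AraC (SE 0.21, adjusted p = 8.97e-06) and 5.02 under venetoclax (SE 0.62, adjusted p = 0.000439). The value after MK-2206 stood above 80.9% of all genes tested and those of FOXM1-KD cells above 96.1% to 96.5%. Under venetoclax it was 6.18 without control replicate 1 and 4.35 without control replicate 2, called in both.

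IRS1, a docking protein of both receptors, was near its counting limit in control cells and rose in the same comparisons. The 8 control libraries without MK-2206 had 8 to 25 counts (0.390 to 1.61 CPM), against 428 and 311 counts after MK-2206 (61.1 and 35.9 CPM). FOXM1-KD cells had 240 and 188 counts with DMSO (12.7 and 9.91 CPM), 390 and 328 with AraC (23.0 and 17.3 CPM) and 127 and 108 with venetoclax (8.68 and 6.45 CPM). These libraries lay apart in 5 steps, with MK-2206 highest, then FOXM1-KD with AraC, with DMSO and with venetoclax, then all others. IRS1 was higher by 6.73 on the log2 scale after MK-2206 (SE 0.43, adjusted p = 0.000704), by 4.59 in FOXM1-KD DMSO cells (SE 0.28, adjusted p = 0.00378), by 4.75 under AraC (SE 0.35, adjusted p = 7.99e-05) and by 2.98 under venetoclax (SE 0.61, adjusted p = 0.00817). The venetoclax value was 4.24 without control replicate 1 and 2.22 without control replicate 2, and the AraC value was 5.36 without control replicate 1, and all of these were called.

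IRS2, the other docking protein, was higher after MK-2206 and lower in FOXM1-KD cells with DMSO. It had 159 and 166 CPM in control DMSO libraries (2902 and 3025 counts), 873 and 390 after MK-2206, 144 and 140 with AraC, 143 and 314 with STL427944 and 334 and 151 with venetoclax. In FOXM1-KD cells it had 82.1 and 58.7 CPM with DMSO, 125 and 102 with AraC and 315 and 142 with venetoclax. Both MK-2206 libraries lay above all others, and both FOXM1-KD DMSO libraries lay below all others. The log2 fold change of IRS2 was 2.02 after MK-2206 (SE 0.40, adjusted p = 0.015) and −1.20 in FOXM1-KD DMSO cells (SE 0.19, adjusted p = 0.0212). The former was 1.31 without MK-2206 replicate 1, still called. The latter was lost without either control DMSO library (adjusted p = 0.142 and 0.150) and fell just under 2-fold without FOXM1-KD replicate 2 (−0.99, adjusted p = 0.0243).

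Under AraC and venetoclax the difference in IRS2 between FOXM1-KD and control cells was small, −0.36 (SE 0.17, adjusted p = 0.152) and −0.09 (SE 0.47, adjusted p = 0.914). The venetoclax value turned to 0.58 without control replicate 1 and to 0.38 without FOXM1-KD replicate 2. Within FOXM1-KD cells venetoclax gave a log2 fold change of 1.71 (SE 0.41, adjusted p = 0.533), which DESeq2 (1.73, adjusted p = 0.000536) and the fit without low-count genes (1.71, adjusted p = 9.64e-05) called. The AraC response of IRS2 differed between FOXM1-KD and control cells by 0.91 (SE 0.27, adjusted p = 0.19).

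ERBB3, a receptor for neuregulins, and AXL, a receptor for GAS6, were at or near 0 except after MK-2206. The MK-2206 libraries had counts on more genes than any other library (21430 and 24957), so detection mainly there was not particular to these 2 genes. ERBB3 had 46 and 51 counts with MK-2206 (6.57 and 5.89 CPM), 0 and 0 in control DMSO libraries, at most 1 in the other control libraries and at most 5 in FOXM1-KD libraries. AXL had 11 and 16 counts with MK-2206 (1.57 and 1.85 CPM), 0 and 0 with DMSO and at most 6 elsewhere. Against the floor of 3 counts per library, MK-2206 libraries held at least 37.9-fold more ERBB3 (adjusted p = 0.00187 in edgeR's quasi-likelihood test) and at least 10.4-fold more AXL (adjusted p = 0.0109).

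For STL427944 and venetoclax in control cells no gene of the table was called, so none of the 9 and 10 genes tested here was, and the values of single libraries spread widely. IGF1R had 4.18 and 12.6 CPM with STL427944 and 11.6 and 3.27 CPM with venetoclax, INSR had 58.7 and 103 CPM and 98.7 and 57.0 CPM, and IRS2 had 143 and 314 CPM and 334 and 151 CPM. In each pair the higher value belonged to the library that stood apart, control STL427944 replicate 2 or control venetoclax replicate 1, and the other lay within or below the range of the 2 DMSO libraries. Without STL427944 replicate 2 the log2 fold changes against DMSO were −0.15 for INSR and −0.20 for IRS2, and without replicate 1 they were 0.69 and 0.98. IGF1R was called without STL427944 replicate 1 (1.63, adjusted p = 0.0953), where 5.95% of all genes were called, and had 0.00 without replicate 2. Without venetoclax replicate 1 they were −0.19 and −0.11, and IRS2 had 1.07 without replicate 2 (adjusted p = 0.143). With all libraries, IRS1 had the lowest unadjusted p under STL427944 (log2 fold change 1.42, SE 0.53, adjusted p = 0.878).

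Genes around these receptors, taken from lists that were also chosen with earlier results of these data known, were read in the same fits. Of 51 other receptor tyrosine kinase genes, 34 were higher and 7 lower of 49 tested after MK-2206. Their median log2 fold change was 3.23 against 1.05 over all genes tested, of which 28% were called higher and 17.3% lower. The MK-2206 libraries had counts on the most genes (21430 and 24957). With AraC in control cells 42 of the list were tested. How far detection from near 0 counts makes up the MK-2206 result was not tested. In FOXM1-KD cells 8 were higher and 11 lower with DMSO, 11 and 13 under AraC, and 5 and 11 under venetoclax, of 43, 45 and 46 tested, with medians of −0.69, −0.40 and −0.15 against −0.03, 0.08 and 0.12. Over all genes 12.9% were called higher and 15.9% lower with DMSO, 15.4% and 14.2% under AraC, and 10.2% and 12.3% under venetoclax, and the shares of all genes given here also apply to the lists that follow. Without either control DMSO library 0 of these genes were called higher in FOXM1-KD DMSO cells, and 6 or 5 lower. FLT1, a VEGF receptor, had 133 and 141 CPM in control DMSO and 0.793 and 0.0527 CPM in FOXM1-KD DMSO libraries (−8.31, SE 0.49, adjusted p = 0.00353). TIE1, an endothelial receptor, was at least 288-fold lower in the same comparison (adjusted p = 0.00082), and RET, the receptor for GDNF family ligands, was higher by 7.75 (SE 1.02, adjusted p = 0.0129). AraC in FOXM1-KD cells raised 12 of 41 and lowered 0, with a median of 1.56 against 0.03, where 6.45% of all genes were called higher. In control cells AraC raised 13 of 42 and lowered 0, with a median of 0.89 against −0.01, where 3.94% of all genes were called higher. Among the 13 were FGFR3 (2.27, SE 0.18, adjusted p = 0.0111) and TYRO3 (1.71, SE 0.16, adjusted p = 0.0127). Without either AraC library 0 of them were called.

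Ligand genes of the receptors that were called were higher with 1 exception, and many were not called. Of 21, 13 were higher and 0 lower after MK-2206, 6 and 0 of 15 tested in FOXM1-KD DMSO cells, 6 and 1 of 17 under AraC and 4 and 0 of 19 under venetoclax. The medians were 5.15, 1.75, 1.90 and 2.26 against 1.05, −0.03, 0.08 and 0.12 over all genes. All 21 were tested after MK-2206 and 12 with AraC in control cells. The part of detection from near 0 counts was not tested here either. In the 3 FOXM1-KD comparisons 9, 10 and 15 of the tested ligand genes were not called. KITLG, the ligand of KIT, had 0 counts in all 8 control libraries without MK-2206, 436 and 883 counts with MK-2206, and 137 and 46, 135 and 164, and 238 and 266 counts in FOXM1-KD cells with DMSO, AraC and venetoclax. KITLG rose at least 499-fold with MK-2206 (adjusted p = 0.0012). FOXM1-KD against control gave at least 29.4-fold higher values with DMSO (adjusted p = 0.0699), at least 55.7-fold under AraC (adjusted p = 9.82e-05) and at least 94.7-fold under venetoclax (adjusted p = 0.000112). GAS6, the ligand of AXL, rose at least 36.1-fold between control and FOXM1-KD cells under AraC (adjusted p = 6.58e-05). Without either control DMSO library 0 ligand genes were called higher in FOXM1-KD DMSO cells, and without FOXM1-KD venetoclax replicate 2 the count under venetoclax was 1.

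Among 9 genes of IGF binding proteins and the IGF-2 receptor, IGF2R and IGFBP2 moved in opposite directions. IGF2R, which clears IGF-2 from the cell surface, had 22.7 and 13.3 CPM in control DMSO, 424 and 370 in FOXM1-KD DMSO and 398 and 390 CPM after MK-2206. It was higher by 4.47 in FOXM1-KD DMSO cells (SE 0.32, adjusted p = 0.00462) and by 4.52 after MK-2206 (SE 0.33, adjusted p = 0.000862). IGFBP2, a secreted IGF binding protein, fell, with log2 fold changes of −5.84 (SE 0.25, adjusted p = 0.00241) and −1.69 (SE 0.35, adjusted p = 0.0167). In all, 5 of 8 tested were higher and 1 lower after MK-2206 (median 3.34), and 1 of 6 was higher and 2 lower in FOXM1-KD DMSO cells (median −0.06).

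Among adaptors and effectors, STAT5A and STAT5B fell in FOXM1-KD DMSO cells, after MK-2206 and after AraC. After MK-2206, 2 of 21 tested were higher and 8 lower (median −0.32 against 1.05 over all genes), and in FOXM1-KD cells 2 and 4 of 21 with DMSO, 4 and 3 of 20 under AraC and 3 and 6 of 21 under venetoclax. Over protein-coding genes with a mean of at least 10 CPM, the median after MK-2206 was −0.49 and 36.5% were called lower. The adaptor list lay near both of these values. STAT5A, a transcription factor activated by KIT and FLT3 signaling, had 750 and 771 CPM in control DMSO, 16.1 and 6.91 in FOXM1-KD DMSO and 8.28 and 3.58 CPM after MK-2206. Its log2 fold change was −6.04 in FOXM1-KD DMSO cells (SE 0.46, adjusted p = 0.0053), −6.96 after MK-2206 (SE 0.43, adjusted p = 0.000665) and −1.37 after AraC in control cells (SE 0.13, adjusted p = 0.0126). The related STAT5B had −2.30, −3.86 and −1.48 in these comparisons (adjusted p = 0.00724, 0.000543 and 0.0107).

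Attenuators of receptor signaling were called in both directions, after MK-2206 with a share higher near that of all genes (28%): 7 higher and 7 lower of 22 after MK-2206 and 8 and 5 of 21, 9 and 2 of 21 and 7 and 6 of 21 in FOXM1-KD cells with DMSO, AraC and venetoclax. LRIG1, a membrane protein that promotes receptor degradation, had 8 and 1 counts in control DMSO libraries, 632 and 937 in FOXM1-KD DMSO libraries and 927 and 853 after MK-2206. It was higher by 7.36 (SE 0.56, adjusted p = 0.00513) and by 8.88 (SE 0.54, adjusted p = 0.000637). ERRFI1, an inhibitor of EGFR family kinases, rose at least 791-fold with MK-2206 (adjusted p = 0.000309), and PTPRJ, a receptor phosphatase, was higher by 7.17 in FOXM1-KD DMSO cells (SE 0.51, adjusted p = 0.00474). SLA and SLA2, adaptors that lower receptor levels in lymphoid cells, had log2 fold changes of −6.19 after MK-2206 (SE 0.33, adjusted p = 0.000548) and −6.09 in FOXM1-KD DMSO cells (SE 0.46, adjusted p = 0.00521), respectively.

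**Figure D4:**
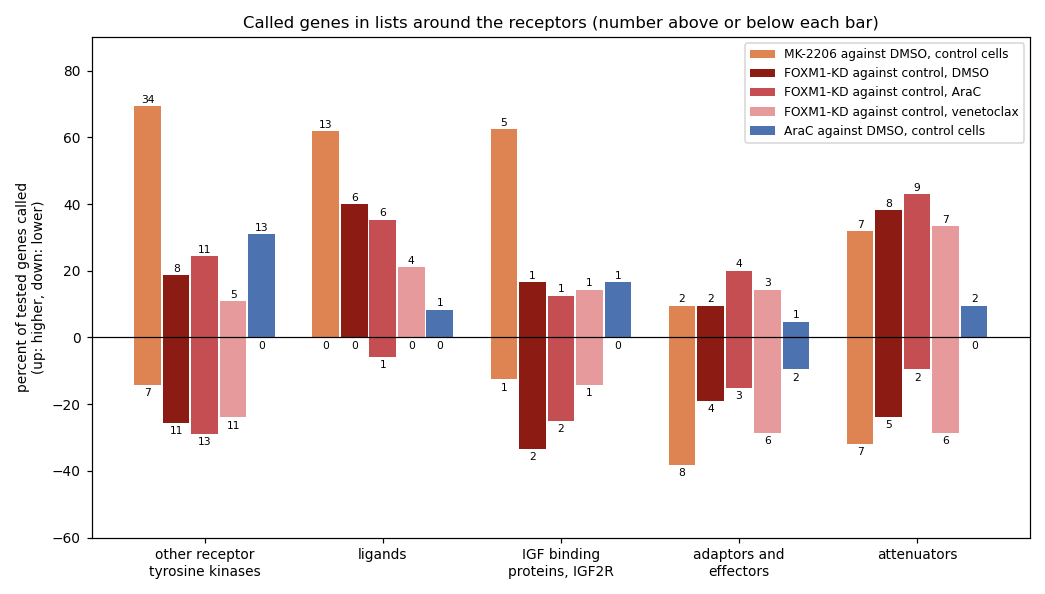
Percent of the tested genes of 5 gene lists that were called higher (upward bars) or lower (downward bars) in 5 comparisons, with the number of genes at each bar. Ligands were called higher (13, 6, 6, 4 and 1 genes) with 1 gene called lower, and attenuators in both directions except under AraC in control cells.

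The genes whose levels followed each member most closely were picked by Pearson's r of log2(CPM + 1) over the 8 condition means, among 10798 protein-coding genes with at least 10 CPM in some condition. Those with the highest r, up to 3 for each, were ZEB1, ZNF778 and KIF26A for FGFR1 (0.996, 0.995 and 0.993), LAX1 and RIPK2 for KIT (0.998 and 0.996), and PTAR1, ENDOD1 and ASB7 for FLT3 (0.975, 0.965 and 0.942). For the insulin and IGF-1 arm they were SLC25A43, LRRC8C and SYNE3 for INSR (0.992, 0.983 and 0.981), VPS37C, TRMT2A and LGR4 for IGF1R (0.996, 0.995 and 0.993), NR3C2, MARK1 and TMEM175 for IRS1 (0.994, 0.994 and 0.993) and FBXL14, DAPK3 and GRB10 for IRS2 (0.957, 0.944 and 0.940). ATG14, DYNC2I1 and PER1 were nearest to FGFR1OP2 (0.992, 0.988 and 0.987). These values describe 8 points that share libraries and a strong contrast between control and FOXM1-KD cells, and no p is given.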

How the data were processed

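RNA of 16 KG-1 libraries was sequenced by the authors, and the labels group them into 8 conditions of 2. The authors deposited whole-number read counts per gene, not normalized; per the labels reads were aligned with STAR to hg38 and counted with featureCounts. The labels name an Illumina RiboZero and TruSeq Stranded kit and the methods another kit with molecular identifiers, whose use in counting is not given in the sources used here. Replicates are called biological in the methods; p-values measure the spread between these libraries.

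Members and gene lists were chosen with earlier results of these data known. Ensembl identifiers were named with GENCODE release 44. Levels are CPM with TMM factors over 16 libraries. Each comparison was fitted with the quasi-likelihood test of edgeR 4.0.16 (R 4.3.3, limma 3.58.1; prior count 0.125) on genes with a count of 1 or more in some library, and p-values were adjusted over all of these by Benjamini-Hochberg; a call needed a 2-fold difference and an adjusted p below 0.1. The SE of a log2 fold change is its size divided by the square root of F. A fold against a group at or below 3 counts in every library is given as a lower bound from that floor per library, which covers counting error only. Named genes were the 10 members, FOXM1, genes within 500 kb, and from each list up to 4 called genes per comparison with the largest change at 5 CPM or more. Genes named outside this rule (CD34, the marker genes and, where not among those 4, list genes such as KITLG in FOXM1-KD DMSO cells) were named after their values were seen. Alternatives were other scalings, DESeq2 1.42.0, edgeR's low-count filter, 1 fit of all libraries, an adjusted p below 0.05, a prior count of 2, each library left out, and the replicate number as a block. The number pairs libraries: deviations of same-numbered libraries correlated at 0.457 to 0.744 in 10 pairs of numbered groups over 12583 genes; labels give no number for DMSO and STL427944. The code was tested on simulated data. Figures and sequence counts used python 3.11.15, pandas 2.3.3, scipy 1.17.1 and matplotlib 3.10.9. Some items are not reported here.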

Additional observations from a re-analysis of the deposited data

How the results depend on the processing

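Of the alternatives to called differences in single genes, 298 kept direction and call and 11 lost the call. The replicate block left 5 genes called between FOXM1-KD and control cells under AraC and 4 under venetoclax, as without this pairing, and changed no other call; the other comparisons lack numbers in a group. Leaving out 1 library gave 7 to 8 genes called after MK-2206, 0 to 1 after STL427944, 0 to 2 after AraC and 0 after venetoclax in control cells, 5 to 7 between FOXM1-KD and control with DMSO, 5 to 7 under AraC and 4 to 6 under venetoclax, 0 to 1 for AraC and 0 to 1 for venetoclax in FOXM1-KD cells, and 0 to 2 and 0 for the differences between AraC and between venetoclax responses. AraC in control cells called 1 gene in the fit of all 16 libraries. AraC in FOXM1-KD cells called 1 with library totals, with the low-count filter and with the older quasi-likelihood fit (chosen after seeing the data), and 2 in the fit of all 16. The shares of all genes called there were 10.4%, 17.4%, 11.6% and 8.73%. Venetoclax in FOXM1-KD cells called 2 with DESeq2, the filter and the older fit, and 1 in the fit of all 16. The shares of all genes were 1.22%, 3.11%, 2.09% and 1.01%. The AraC and venetoclax response differences each called 1, FLT3, with DESeq2 and the older fit. DESeq2 called 3.43% and 0.227% of all genes there, and the older fit 5.13% and 0.743%.

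Differences that turned sign were not called either way, and each is given with its range over the libraries left out. FGFR1OP2 after MK-2206 had −0.0832 with library totals and −0.0967 to 0.306 with a library left out. FGFR1OP2 had −0.0622 to 0.269 for AraC in control cells, −0.527 to 0.116 for AraC in FOXM1-KD cells (0.0509 without DMSO replicate 1) and −0.325 to 0.122 for venetoclax in FOXM1-KD cells (0.0466 without venetoclax replicate 1). Under STL427944, FLT3 had −0.118 to 0.378 (−0.0749 without DMSO replicate 2), INSR −0.151 to 0.694 and IRS2 −0.20 to 0.978, the low ends without STL427944 replicate 2. Under venetoclax in control cells, FGFR1 had −0.23 to 0.26, FLT3 −0.216 to 1.12, INSR −0.189 to 0.642, IGF1R −0.347 to 1.52, IRS1 −0.258 to 1.80 and IRS2 −0.108 to 1.07, with the low ends without venetoclax replicate 1. Between FOXM1-KD and control under venetoclax, IRS2 had −0.776 to 0.58 (0.376 without FOXM1-KD replicate 2, 0.58 without control replicate 1) and FLT3 −0.13 to 1.16, the low end without control replicate 2. For AraC in FOXM1-KD cells, FLT3 had 0.0588 with library totals and −0.542 to 0.57 with a library left out, and FGFR1 −0.231 to 0.65. The cause of these changes was not tested. Depth limits ERBB3, AXL and, in FOXM1-KD and MK-2206 cells, KIT (8 and 6 counts with MK-2206), which lie near the floor of 3 counts. It also limits IRS1 in control libraries without MK-2206 (8 to 25 counts).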
